A study of Mus musculus with 16 samples.

Results

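Olfactory sensory neurons are replaced throughout life from basal progenitors, and each new neuron passes through an immature stage in which it extends an axon to the olfactory bulb before it makes the olfactory marker protein and the odorant transduction machinery. The genes described here are 10 whose transcripts are known from such young neurons: the transcription factors Nhlh1 and Nhlh2, the growth-associated protein Gap43, the G protein subunit Gng8, the collapsin response mediator proteins Crmp1, Dpysl3 and Dpysl5, the stathmins Stmn1 and Stmn2, and the microtubule-binding protein Dcx. They were taken by name, but with earlier results of these data known, so their counts beside all genes describe the list and are no blind test. All 10 were on the array, each with 1 probe set, among 19505 named genes.

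All mice carried the S100a5-tauGFP reporter, in which S100a5, a gene that olfactory neurons transcribe when they are active, drives a green fluorescent protein, so the GFP+ gate takes cells in which the reporter is on and the GFP- gate takes cells of the mucosa in which it is not. The 24 mice, of both sexes and 7 to 12 weeks old, spent 40 h in clean air chambers, and from 26 h on they received octanoic acid, a fatty acid odorant, or clean air as the vehicle, in pulses of 10 s every 20 min. Mucosa was pooled from 3 mice and sorted, which gave 4 groups of 4 samples, named GFP+ octanoic acid, GFP- octanoic acid, GFP+ clean air and GFP- clean air. Each of the 8 pools gave a GFP+ and a GFP- sample, so differences between the gates were taken within a pool.

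Values are log2 signals of Clariom S arrays, so a difference of 1 is a doubling, and signals of different probe sets are not set against each other. The background was set at 6.20 log2, the middle value of the array's 5222 negative controls, pooled over the arrays. Taken per array, this middle value ran from 5.80 to 6.77, and from 6.21 to 6.71 on the GFP+ arrays. 1 in 20 of these controls read over 10.4 log2, so a moderate signal alone does not show that a gene was transcribed. The GFP+ signals of Nhlh2, Gap43 and Dpysl3 lay between 6.20 and 10.4 log2, so their folds may be limited by the background. S100a5, whose promoter set the gate, was higher in GFP+ cells by 1.53 ± 0.52 log2 with octanoic acid and by 1.32 ± 0.22 with clean air (SD, n = 4 pools). Omp, the marker of mature olfactory neurons, differed by 0.17 ± 0.10 and 0.13 ± 0.17 and passed no test, with means of 18.84 in GFP+ and 18.67 in GFP- cells with octanoic acid, and 18.83 and 18.69 with clean air. The GFP+ array of octanoic acid pool 3 had a mean of 10.1 log2 over the sustentacular cell markers, against 7.64 to 8.66 on the other GFP+ arrays. Arrays of a bulk sort cannot tell fewer cells of a type from less RNA per cell.

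With octanoic acid, 8 of the 10 genes were lower in GFP+ cells and none was higher, where 10.9% of all genes were lower and 6.26% higher (limma, adjusted p under 0.05 over all genes). With clean air 7 of 10 were lower and none higher, against 9.58% and 5.83% of all genes. Every GFP+ array lay below every GFP- array for 9 of the 10 genes with octanoic acid and for 7 with clean air, as for 10.7% of all genes in each treatment. The median over the 10 genes was -2.21 log2 with octanoic acid and -2.67 with clean air, while the median over all genes was 0.11 in each. The genes did not move as a block. Among those above the background in both gates, mean differences over the 8 pools ran from -4.13 ± 0.67 for Dpysl3 to 0.21 ± 0.16 for Dcx (SD), and Nhlh1 and Gng8 were lower still, at the background in GFP+ cells.

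**Figure D1:**
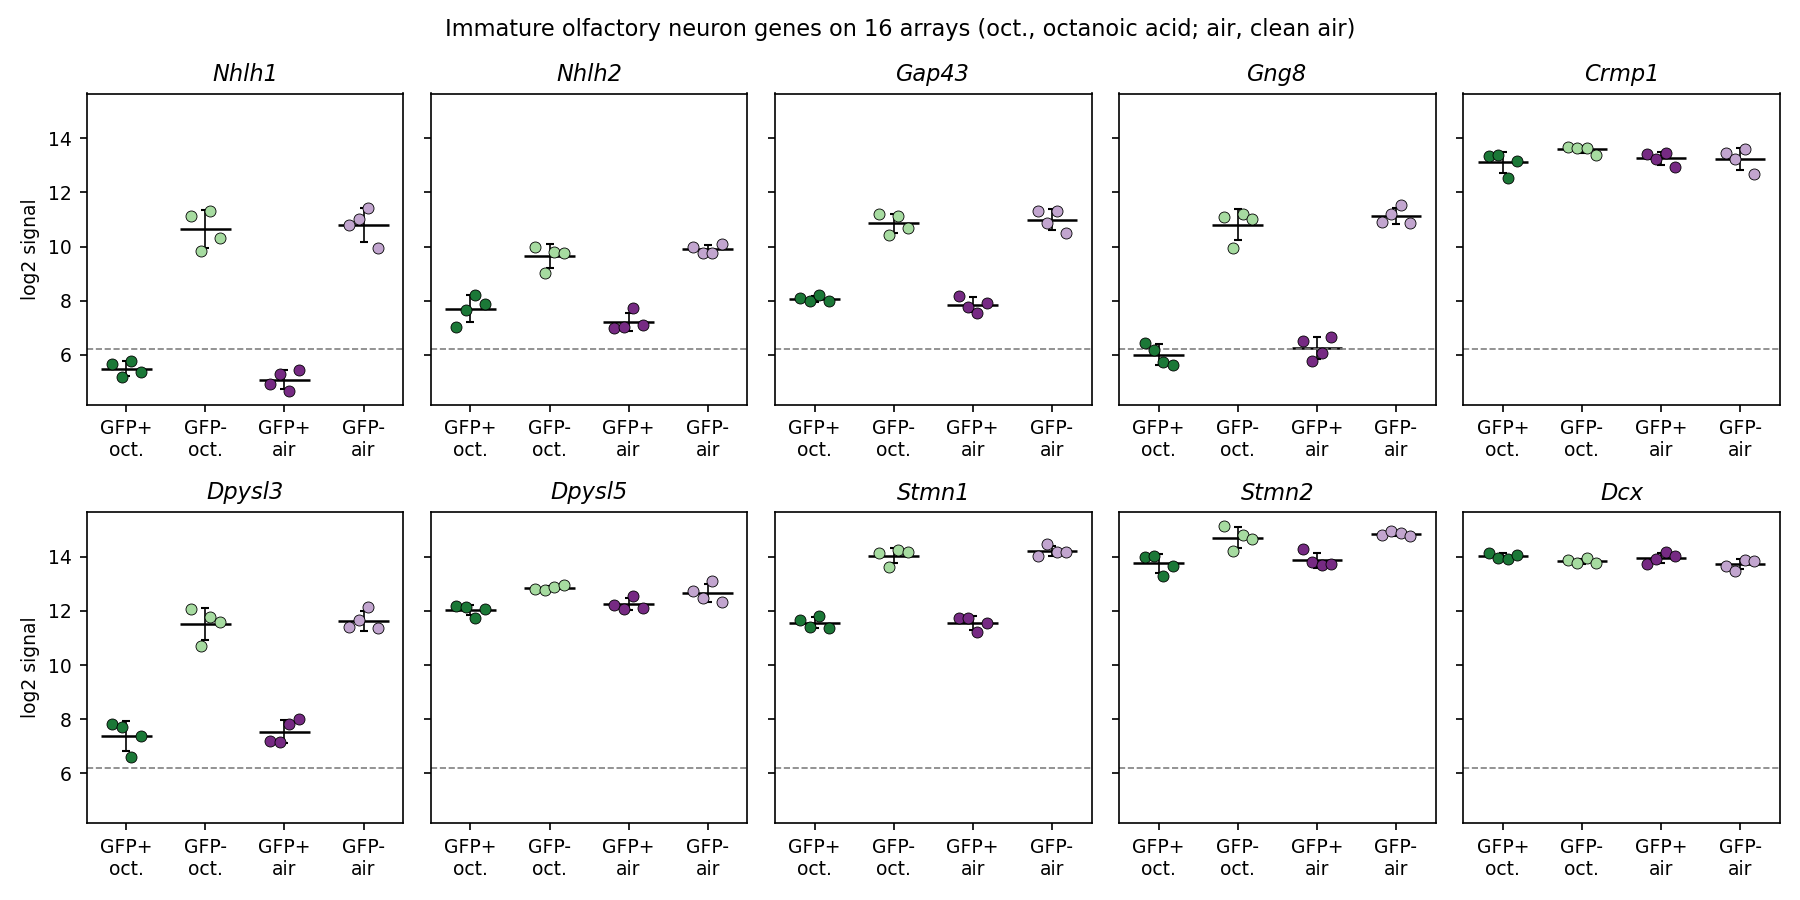
Log2 signal (y axis) of the 10 immature neuron genes on each array (points) in the 4 groups (x axis), with the group mean and SD, n = 4; the dashed line is the background, 6.20 log2. Nhlh1 and Gng8 sit at the background in GFP+ cells. Dcx overlaps between the gates in both treatments, and Crmp1 and Dpysl5 overlap with clean air.

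The transcription factors differed between the gates to unlike extents. Nhlh1, a basic helix-loop-helix factor switched on in newly born neurons, gave 5.65, 5.17, 5.76 and 5.38 log2 in GFP+ cells with octanoic acid, against 11.13, 9.82, 11.30 and 10.31 in GFP- cells. With clean air it gave 4.93, 5.30, 4.68 and 5.44 in GFP+ cells, against 10.80, 11.01, 11.41 and 9.94 in GFP- cells. All 8 GFP+ arrays lay under the background and all GFP- arrays far above it, so the fold is a lower bound: GFP+ cells held at least 21.7-fold less with octanoic acid (adjusted p = 2.33e-07) and at least 24.1-fold less with clean air (adjusted p = 1.32e-07).

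Nhlh2, its paralog, known in mice from the development of hypothalamic neurons, fell less. It measured 7.03, 7.67, 8.22 and 7.89 log2 in GFP+ cells with octanoic acid, against 9.99, 9.02, 9.82 and 9.77 in GFP- cells. Under clean air it ranged from 7.00 to 7.73 in GFP+ cells, against 9.76 to 10.10 in GFP- cells. The gates did not overlap in either treatment. The differences were -1.95 ± 0.71 (adjusted p = 0.000161) and -2.69 ± 0.45 (adjusted p = 1.35e-05; SD, n = 4). Unlike Nhlh1, Nhlh2 stayed above the background on every GFP+ array.

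The proteins of the growing axon were also lower. Gap43, a membrane protein of growth cones and the classical marker of immature olfactory neurons, lay between 7.98 and 8.20 log2 in GFP+ cells with octanoic acid, against 11.18, 10.43, 11.12 and 10.68 in GFP- cells. With clean air the values were 8.18, 7.77, 7.54 and 7.92 in GFP+ cells, against 11.31, 10.87, 11.32 and 10.49 in GFP- cells. Every GFP+ array was below every GFP- array, and the GFP+ arrays with octanoic acid were close to each other (SD 0.10). The fall was 6.92-fold with octanoic acid (adjusted p = 1.25e-06) and 8.85-fold with clean air (adjusted p = 5.11e-07).

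Gng8, the G protein gamma subunit known from immature olfactory and vomeronasal neurons, fell further. It gave 6.45, 6.18, 5.74 and 5.61 log2 in GFP+ cells with octanoic acid, against 11.07, 9.95, 11.19 and 11.01 in GFP- cells. Under clean air it lay between 5.76 and 6.66 in GFP+ cells, against 10.87 to 11.52 in GFP- cells. 5 of the 8 GFP+ arrays were under the background, so the folds are lower bounds, at least 23.3-fold with octanoic acid (adjusted p = 4.30e-07) and at least 26.7-fold with clean air (adjusted p = 4.14e-07). Gng13, the gamma subunit of the mature transduction cascade, differed by 0.43 ± 0.11 with octanoic acid and 0.22 ± 0.12 with clean air and passed neither test (adjusted p = 0.0510 and 0.337).

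The collapsin response mediator proteins, cytosolic partners of tubulin that act downstream of semaphorins, split widely although they are paralogs. Dpysl3 gave 7.82, 7.72, 6.60 and 7.36 log2 in GFP+ cells with octanoic acid, against 12.07, 10.70, 11.76 and 11.58 in GFP- cells. In the clean air pools it gave 7.19, 7.16, 7.81 and 8.02 in GFP+ cells, against 11.39, 11.66, 12.15 and 11.36 in GFP- cells. The gates stood more than 2 log2 units apart on any pair of arrays. The fall was 17.8-fold with octanoic acid (adjusted p = 1.34e-06) and 17.1-fold with clean air (adjusted p = 1.69e-06). In octanoic acid pool 3 the GFP+ signal of 6.60 lay under that array's own background of 6.71, so that difference is limited by it. Without that pool the octanoic acid difference was -3.82 log2.

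Dpysl5 was bright in both gates. It gave 12.17, 12.16, 11.75 and 12.06 log2 in GFP+ cells with octanoic acid, against 12.81, 12.77, 12.87 and 12.95 in GFP- cells, a fall of 0.82 on the log2 scale (SD 0.24, adjusted p = 0.00205). With clean air it gave 12.22, 12.07, 12.56 and 12.11 in GFP+ cells, against 12.74, 12.49, 13.10 and 12.33 in GFP- cells. There the gates overlapped as groups, although each pool was lower in GFP+ cells, and the difference of -0.42 ± 0.15 did not pass (adjusted p = 0.0808). It passed with quantile normalization (adjusted p = 0.0240) and with dim genes left out (adjusted p = 0.0476).

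Crmp1 passed in neither treatment. It measured 13.35, 13.40, 12.55 and 13.15 log2 in GFP+ cells with octanoic acid, against 13.66, 13.65, 13.64 and 13.40 in GFP- cells, a difference of -0.48 ± 0.41 (adjusted p = 0.0869). The gates only just failed to overlap. Pool 3, whose GFP+ array carried the high sustentacular signal, had -1.09 and the other pools -0.32 to -0.24. With clean air the gates overlapped, at 12.95 to 13.45 in GFP+ cells and 12.67 to 13.61 in GFP- cells, and the difference was 0.02 ± 0.18 (adjusted p = 0.961), with a 95% interval of -0.36 to 0.40. Of the other members of this family, Dpysl2 differed by 0.15 ± 0.21 and 0.31 ± 0.29, and Dpysl4 lay at the background in both gates, so the family was lower in GFP+ cells in 2 of 5 cases with octanoic acid and in 1 of 5 with clean air.

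The microtubule regulators split as well. Stmn1, a tubulin-binding protein of neuronal precursors that dividing cells of many tissues also make, gave 11.68, 11.41, 11.81 and 11.37 log2 in GFP+ cells with octanoic acid, against 14.13, 13.62, 14.24 and 14.18 in GFP- cells. With clean air it gave 11.74, 11.72, 11.21 and 11.54 in GFP+ cells, against 14.04, 14.46, 14.16 and 14.18 in GFP- cells. It had the smallest spread between pools of the strongly lower genes, with a 5.56-fold fall with octanoic acid (adjusted p = 6.35e-07) and a 6.29-fold fall with clean air (adjusted p = 3.97e-07).

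Stmn2, the stathmin of growth cones, was bright on every array. It gave 14.01, 14.03, 13.31 and 13.68 log2 in GFP+ cells with octanoic acid, against 15.13, 14.21, 14.81 and 14.66 in GFP- cells. Under clean air it lay between 13.69 and 14.27 in GFP+ cells, against 14.75 to 14.94 in GFP- cells, with no overlap in either treatment. The fall was 0.95 on the log2 scale with octanoic acid (SD 0.55, adjusted p = 0.00769) and 0.97 with clean air (SD 0.30, adjusted p = 0.00691). Pool 2 differed by only -0.18 with octanoic acid, where the other pools ran from -1.50 to -0.98. Without octanoic acid pool 3 and clean air pool 4 the octanoic acid difference was -0.76 and no longer passed (adjusted p = 0.0629). The other stathmins were level, Stmn3 at 0.10 ± 0.14 and 0.06 ± 0.13 and Stmn4 at 0.21 ± 0.44 and 0.07 ± 0.33.

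Dcx, doublecortin, a microtubule stabilizer of migrating and newly formed neurons, stood apart from the rest. It gave 14.13, 13.96, 13.90 and 14.08 log2 in GFP+ cells with octanoic acid, against 13.86, 13.76, 13.95 and 13.76 in GFP- cells. In the clean air pools it gave 13.72, 13.93, 14.16 and 14.04 in GFP+ cells, against 13.67, 13.48, 13.88 and 13.84 in GFP- cells. The gates overlapped in both treatments, and 7 of the 8 pools were slightly higher in GFP+ cells.

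The differences of Dcx were 0.18 ± 0.16 (95% interval -0.13 to 0.49, adjusted p = 0.423) and 0.24 ± 0.16 (-0.07 to 0.56, adjusted p = 0.302). These intervals leave out a fall of the size seen for Stmn2. Array median centring turned them into rises of 0.49 (adjusted p = 0.0212) and 0.52 (adjusted p = 0.0202), which made the count 8 lower and 1 higher with octanoic acid and 7 lower and 1 higher with clean air. Under that scaling 39.9% and 31.2% of all genes were higher in GFP+ cells, and the median of all genes was 0.42 and 0.38. Of its family, Dclk1 (-0.65 ± 0.94 and -0.66 ± 0.68) and Dclk2 (0.38 ± 0.73 and 0.34 ± 0.39) did not pass, and Dclk3 rose with clean air (1.06 ± 0.71, adjusted p = 0.0207) and did not pass with octanoic acid (0.60 ± 0.60).

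**Figure D2:**
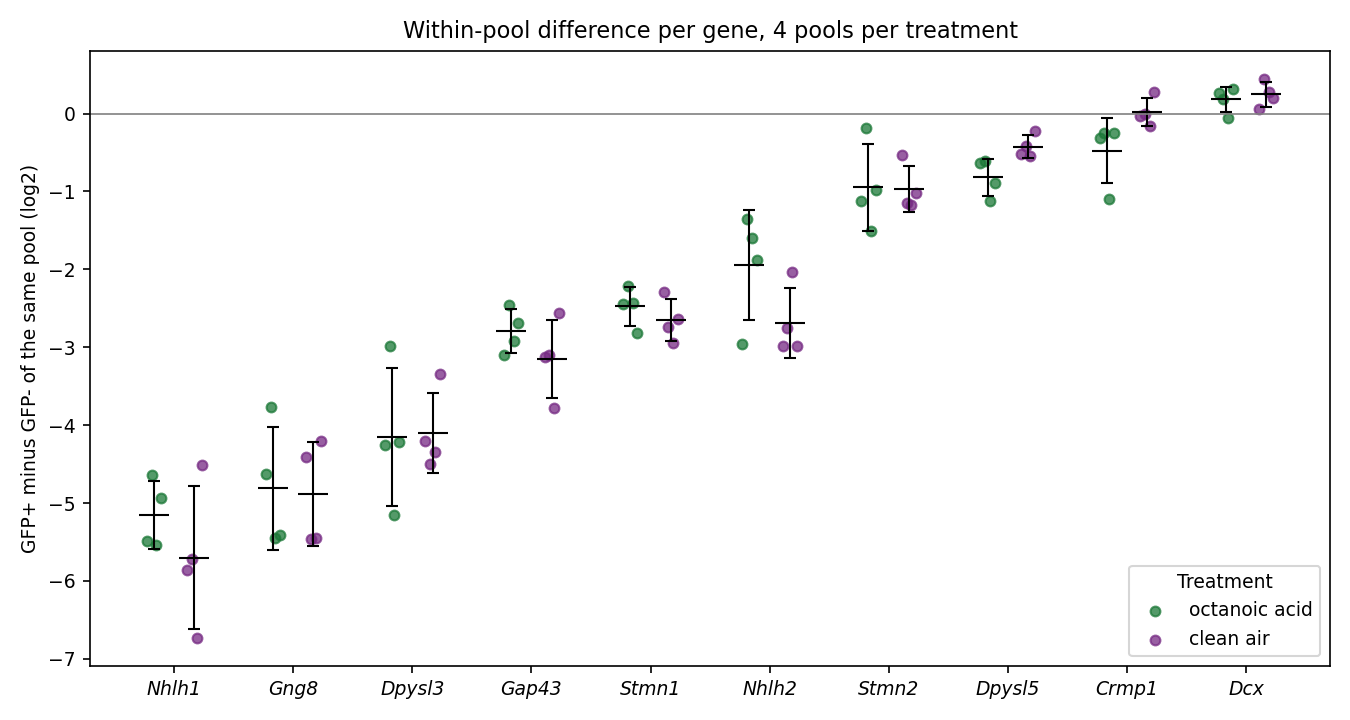
GFP+ minus GFP- log2 difference within each pool (points, y axis) for the 10 genes (x axis, ordered by their mean over the 8 pools), 4 pools with octanoic acid and 4 with clean air, with mean and SD. The differences run from -6.73 for Nhlh1 in a clean air pool to 0.45 for Dcx; those of Nhlh1 and Gng8 are set against GFP+ signals at the background and their order is not measured.

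Nhlh1 and Gng8 had the most negative differences, and their order between them was not measured, since both folds are lower bounds. After them, from most to least negative, came Dpysl3, Gap43, Stmn1, Nhlh2, Stmn2, Dpysl5, Crmp1 and Dcx. Several neighbours did not separate beyond their spread. Stmn1 and Nhlh2 differed by 0.25 ± 0.71 log2, with Nhlh2 the less negative in 4 of 8 pools, and Stmn2 and Dpysl5 by 0.34 ± 0.42. The step of 1.16 ± 0.57 between Dpysl3 and Gap43 held in 8 of 8 pools, and so did that of 1.36 ± 0.75 between Nhlh2 and Stmn2. A smaller step of 0.39 ± 0.18 between Dpysl5 and Crmp1 also held in 8 of 8. As a description, the genes are set in 3 tiers, cut only after Dpysl3 and after Nhlh2. The lowest tier holds Dpysl3 at -4.13, with Nhlh1 and Gng8 below it. The middle tier holds Gap43, Stmn1 and Nhlh2 at -2.97 to -2.32. The highest tier holds Stmn2, Dpysl5, Crmp1 and Dcx at -0.96 to 0.21. This order was read from the same values and carries no test.

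The promoters are shown for the ends of that order, Nhlh1 and Gng8, which were at the background in GFP+ cells, and Crmp1 and Dcx, which passed no test. Each is the 250 bases before the RefSeq transcription start on GRCm38.p6, 5′ to 3′ on the gene's strand, and capitals mark matches on either strand to CANNTG (the E-box, which helix-loop-helix factors bind), CCCNNGGG (the core of sites for early B cell factors) and TATAAA. The windows are chr1:172057597-172057846 (minus strand) for Nhlh1, chr7:16891536-16891785 (plus) for Gng8, chr5:37241808-37242057 (plus, the first of 2 starts) for Crmp1 and chrX:143933220-143933469 (minus, the first of 2 starts) for Dcx.
Nhlh1: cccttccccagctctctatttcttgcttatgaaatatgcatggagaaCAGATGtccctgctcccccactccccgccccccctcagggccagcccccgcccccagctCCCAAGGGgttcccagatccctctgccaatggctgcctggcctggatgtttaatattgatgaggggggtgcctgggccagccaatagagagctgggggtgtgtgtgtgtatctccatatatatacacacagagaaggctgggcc
Gng8: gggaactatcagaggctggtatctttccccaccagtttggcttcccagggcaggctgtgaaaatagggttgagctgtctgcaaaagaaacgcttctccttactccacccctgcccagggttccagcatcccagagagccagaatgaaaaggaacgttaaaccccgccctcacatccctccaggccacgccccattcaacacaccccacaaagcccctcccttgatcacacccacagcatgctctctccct
Crmp1: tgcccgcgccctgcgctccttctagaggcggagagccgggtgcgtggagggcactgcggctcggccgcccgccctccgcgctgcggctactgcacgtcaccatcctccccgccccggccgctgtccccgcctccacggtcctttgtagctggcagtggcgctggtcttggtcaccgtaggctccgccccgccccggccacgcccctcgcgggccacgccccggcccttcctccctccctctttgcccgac
Dcx: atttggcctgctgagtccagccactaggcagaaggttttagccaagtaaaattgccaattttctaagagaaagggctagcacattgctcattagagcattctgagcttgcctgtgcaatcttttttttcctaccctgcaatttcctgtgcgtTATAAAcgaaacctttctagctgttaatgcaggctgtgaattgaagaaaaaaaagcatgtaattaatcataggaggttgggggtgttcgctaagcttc

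An E-box was in 66.2% of 32851 promoter windows of this length, and here in that of Nhlh1 and not in those printed for Gng8, Crmp1 and Dcx. The second Crmp1 window, at chr5:37245514-37245763, did hold 1 E-box. CCCNNGGG was in 11.8% of windows and here in that of Nhlh1, and TATAAA was in 12.4% and here in that of Dcx. CAGCTG, an E-box that helix-loop-helix factors of the neuronal lineage often bind, was in 13.0% of windows and in none of the windows of the 6 of these genes in the table, the other two being Nhlh2 and Dpysl5. The share of G and C was 58.4% for Nhlh1, 56% for Gng8, 75.6% for Crmp1 and 41.6% for Dcx. No match shared by the genes at either end of the order was found among these 4 windows.

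A wider list of genes of the same stage was also examined. Of 20 further genes known from immature neurons and growing axons 19 were measured. 7 were lower and none higher in GFP+ cells in each treatment, with a median of -0.39 log2 with octanoic acid and -0.36 with clean air, or -0.05 and 0.00 with group means under the background raised to it. Cd24a, a surface glycoprotein of young neurons, averaged 5.29 ± 0.33 log2 in GFP+ and 11.90 ± 0.78 in GFP- cells with octanoic acid, and 5.48 ± 0.55 and 11.37 ± 0.36 with clean air. Cxcr4, a chemokine receptor of early neurons and of leukocytes, averaged 6.34 ± 0.60 and 11.82 ± 0.80 with octanoic acid, and 5.88 ± 0.54 and 11.34 ± 0.49 with clean air. Both lay at the background in GFP+ cells.

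Marcks, an actin-regulating substrate of protein kinase C, was lower in GFP+ cells (-2.31 ± 0.37 log2 with octanoic acid and -2.53 ± 0.35 with clean air), and so was the tubulin Tubb2b (-2.74 ± 0.67 and -2.58 ± 0.49). Marcksl1, a paralog of Marcks, passed in both treatments but lay at the background in both gates. Among genes that did not pass, Tubb3, the neuronal beta tubulin, differed by -0.05 ± 0.34 with octanoic acid and 0.04 ± 0.22 with clean air, Tuba1a by -0.01 ± 0.29 and 0.05 ± 0.13, and Map1b by 0.16 ± 0.17 and 0.39 ± 0.11.

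**Figure D3:**
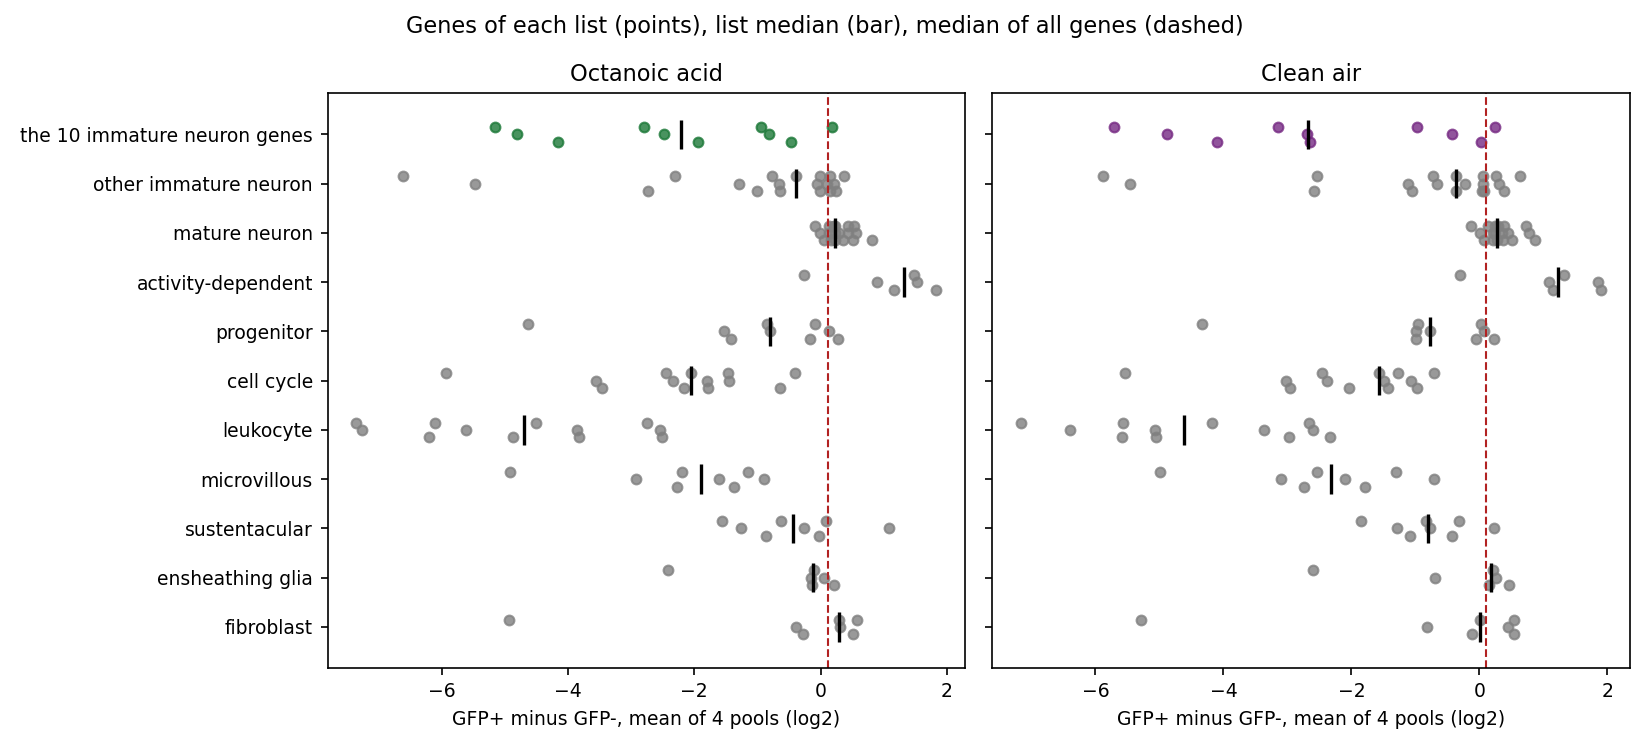
GFP+ minus GFP- log2 difference (x axis, mean of 4 pools) of each gene (points) of 11 lists (rows), with octanoic acid (left) and clean air (right). Bars are list medians and the dashed line is the median of all genes, 0.11; the 10 immature neuron genes spread over 5 log2 units, the mature neuron list lies near the line and the leukocyte list lies lowest.

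Other cell types shifted between the gates in the same samples. 12 of 12 leukocyte markers were lower in GFP+ cells in each treatment. Their mean level was 5.87 to 6.94 log2 on GFP+ and 10.2 to 11.9 on GFP- arrays with octanoic acid, and 5.83 to 6.63 on GFP+ and 10.2 to 10.9 on GFP- arrays with clean air, and 9 of 12 lay at the background in GFP+ cells of each treatment. 12 of 13 cell cycle genes were lower with octanoic acid and 13 of 13 with clean air, with 11 of 13 at the background in GFP+ cells. Their mean level was 5.88 to 6.22 on GFP+ and 7.38 to 9.61 on GFP- arrays with octanoic acid, and 5.81 to 6.04 on GFP+ and 7.34 to 8.47 on GFP- arrays with clean air. Of them, Cdk1, Bub1, Aurkb and Cdc20 lay at the background in both gates. The median of the list was -2.05 and -1.57 log2, or -0.88 and -0.83 with group means raised to the background.

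5 of 9 progenitor genes were lower in each treatment, among them Neurog1 and Hes6, which lay at the background in both gates. 8 of 9 were at the background in GFP+ cells, and the list median was -0.80 and -0.76 log2, or -0.08 and 0.00 with group means raised to the background. Their mean level was 5.51 to 5.64 on GFP+ and 6.49 to 6.71 on GFP- arrays with octanoic acid, and 5.58 to 5.77 on GFP+ and 6.49 to 6.58 on GFP- arrays with clean air. Microvillous cell markers were lower in 7 of 8 cases with octanoic acid and 8 of 8 with clean air. Of these, Gnat3 and Chat lay at the background in both gates, as did Ascl3 with clean air. The microvillous median was -1.90 and -2.32 log2, or -0.88 and -1.57 with group means raised to the background. Sustentacular cell markers were lower in 2 of 8 cases in each treatment, with a median of -0.44 and -0.80 log2. 3 of 8 lay at the background in GFP+ cells, of which Ermn and Aldh1a7 did so in both gates. With octanoic acid the GFP+ array of pool 3 had a mean of 10.1 log2 over these markers, above the GFP- arrays at 8.56 to 9.18. The part of that array in the count was not tested. Ensheathing glia and fibroblast lists had 1 lower gene each in each treatment, Apoe and Vim. All other measured glial genes (S100b, Fabp7, Sox10, Npy and Frzb) lay at the background in both gates. So did the fibroblast genes Col1a2, Col3a1 and Lum, and Pdgfrb with clean air. The part of these cells in the falls of the 10 genes was not tested. Mature neuron genes differed little, with 4 of 18 higher and none lower in each treatment and a median of 0.23 and 0.28 log2. Of 6 activity-dependent genes, S100a5 included, 5 were higher in each treatment, with a median of 1.32 and 1.23 log2. Set against the median of the mature neuron list within each pool, Gap43 stood at -3.01 ± 0.16 with octanoic acid and -3.43 ± 0.42 with clean air, and Dcx at -0.04 ± 0.15 and -0.04 ± 0.16.

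Among the other genes, the 5 whose signals over the 16 arrays were most like the mean of the 10 were the odorant receptors Olfr1252 (Pearson r = 0.990), Olfr1442 (0.990) and Olfr390 (0.990), the transcription factor Sox11 (0.989), known from newborn neurons, and Tubb2b (0.989). The arrays fall into 2 clusters by gate and share pools, so these coefficients mainly restate the difference between the gates and carry no p. Sox11 averaged 9.13 in GFP+ and 11.64 in GFP- cells with octanoic acid, and 8.98 and 11.64 with clean air. Olfr1252 averaged 8.09 in GFP+ and 12.09 in GFP- cells with octanoic acid, and 8.19 and 12.19 with clean air. Against the mean of the other 9 genes, r was 0.98 to 0.99 for Nhlh1, Gap43, Gng8, Dpysl3 and Stmn1, 0.94 for Nhlh2, 0.91 for Stmn2, 0.83 for Dpysl5, 0.38 for Crmp1 and -0.59 for Dcx.

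The comparison of octanoic acid with clean air asks whether exposure to the odorant changed these transcripts in either gate. No gene of the 10 passed in GFP+ cells, where 0% of all genes did (limma, lowest adjusted p among the 10 = 0.955), and none had an unadjusted p under 0.05, as 3.67% of all genes had. The groups overlapped for all 10 genes, while they did not for 2.29% of all genes. The largest estimate was 0.48 for Nhlh2 (95% interval -0.10 to 1.07), with 7.70 ± 0.50 log2 with octanoic acid and 7.22 ± 0.34 with clean air. Nhlh1 and Gng8 were at the background in GFP+ cells of both treatments, so no fold is given for them here. Gap43 averaged 8.06 ± 0.10 with octanoic acid and 7.85 ± 0.27 with clean air, a difference of 0.21 (-0.17 to 0.59). Over the 10 genes the intervals reached from -0.82 to 1.07.

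In GFP- cells no gene of the 10 passed either, again with 0% of all genes (limma, lowest adjusted p among the 10 = 0.985), and none had an unadjusted p under 0.05, as 3.8% of all genes had. The groups again overlapped for all 10 genes, while they did not for 2.27% of all genes. Gng8 averaged 10.81 ± 0.58 with octanoic acid and 11.13 ± 0.30 with clean air, a difference of -0.32 (-0.92 to 0.28). Crmp1 averaged 13.59 ± 0.13 with octanoic acid and 13.24 ± 0.41 with clean air, a difference of 0.35 (-0.11 to 0.80). 7 of the 10 estimates were below 0, and 6 of the 10 were between -0.26 and -0.11. In the main fit the intervals, taken gene by gene, reached from -0.95 to 0.80 over the 10 genes, so a change of 2-fold lay outside them. Over the alternative settings the Nhlh1 estimate ran from -0.65 to 0.12, so that limit is stated for the main fit only.

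**Figure D4:**
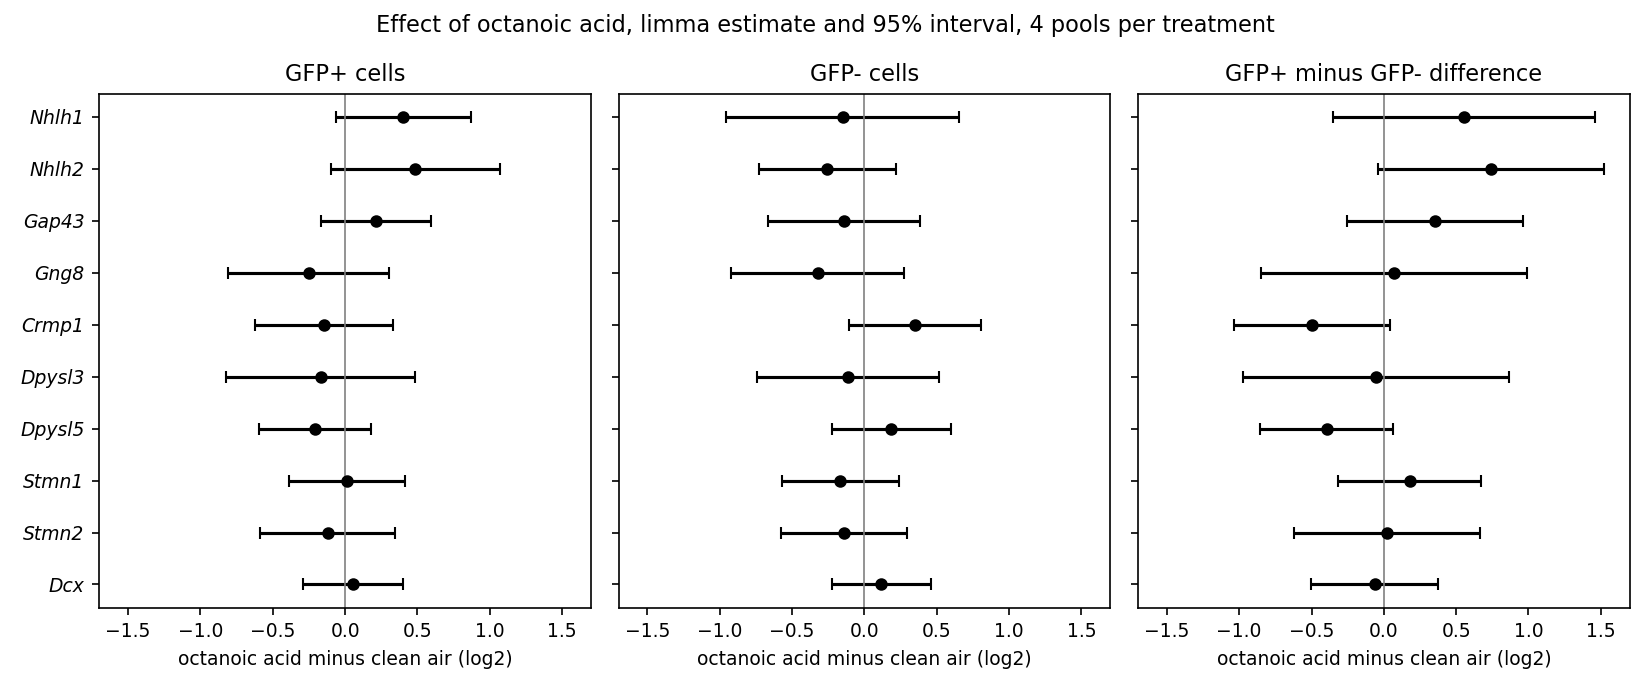
Octanoic acid minus clean air (x axis, log2) for the 10 genes (rows) in GFP+ cells, in GFP- cells and for the GFP+ minus GFP- difference, as limma estimates (points) with 95% intervals (bars), 4 pools per treatment. All intervals include 0.

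The GFP+ minus GFP- difference itself was compared between the treatments. No gene of the 10 passed, with 0% of all genes past the threshold (limma, lowest adjusted p among the 10 = 0.940) and none of the 10 with an unadjusted p under 0.05, as 4.47% of all genes had. The largest estimate was that of Nhlh2, whose difference was -1.95 ± 0.71 with octanoic acid and -2.69 ± 0.45 with clean air, or 0.74 between them (95% interval -0.04 to 1.52). Crmp1 (-0.48 ± 0.41 and 0.02 ± 0.18) and Dpysl5 (-0.82 ± 0.24 and -0.42 ± 0.15) were more negative in every octanoic acid pool than in any clean air pool, as were 1.49% of all genes (2.54% in either direction). Their estimates were -0.49 (-1.03 to 0.04) and -0.40 (-0.85 to 0.06). So Dpysl5 passing with octanoic acid and not with clean air is not a shown difference between the treatments.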

How the data were processed

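The authors deposited log2 signals, 1 per probe set and array, for 16 Clariom S arrays, made with Affymetrix Expression Console per the submitters' processing notes; version, summary method and background step are not given in the sources used here. That scale follows from their range. Of 28846 probe sets 19572 have 1 gene symbol in the platform annotation; the brightest per gene was kept, giving 19505 genes. Precision rests on 4 pools per treatment, since arrays give no read depth.

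limma 3.58.1 under R 4.3.3 (moderated fits, two-sided) compared within-pool differences (GFP+ minus GFP-) against 0 in each treatment and between treatments, and octanoic acid against clean air in each gate; Benjamini-Hochberg over all genes at 0.05. A group whose mean was below the 6.20 log2 background, or within 1 SD over it, was raised to it array by array, and the fold called a lower bound. The fits were also run on simulated data with independent noise on each array, which cannot check the pairing within pools. Labels give octanoic acid and clean air pools the same numbers; deviations of same-numbered pools correlated at 0.100 to 0.237 for the differences, 0.100 to 0.371 in GFP+ and -0.0986 to 0.408 in GFP- cells, so a replicate block was tried, beside other scalings, a filter on dim genes, the mean of probe sets, a trended robust prior and leaving out pools. The pairing is a hint from these correlations, the lowest of which are near or under the limit of 0.1, and not from the labels. Pools with different numbers reached up to 0.149 for the differences, 0.228 in GFP+ and 0.192 in GFP- cells. Whether the pools were independent beyond their mice is not stated. All genes of the 10 are named, with up to 4 of each list by smallest adjusted p with clean air, family members, S100a5, Omp and the 5 most alike genes; Gng13 and other genes outside this rule were chosen after their values were seen. The genes and lists were chosen with earlier results of these data known. Promoter windows are from RefSeq on GRCm38.p6, with 6 of the 10 genes matched and used; the other 4 genes' promoters were not analysed here.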

Additional observations from a re-analysis of the deposited data

Results flagged for a closer look

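Of 60 groups of 4 values (the 10 genes in 4 groups of arrays and in the within-pool differences of each treatment), 4 held a value far from the other three, where about 1 in 20 would by chance. Nhlh2 was high on the GFP+ array of clean air pool 3, at 7.73 log2 against 7.00 to 7.12. Gng8 was low on the GFP- array of octanoic acid pool 2, at 9.95 against 11.01 to 11.19. Crmp1 was low on the GFP- array of octanoic acid pool 4, at 13.40 against 13.64 to 13.66. The within-pool difference of Crmp1 was low in octanoic acid pool 3, at -1.09 against -0.32 to -0.24.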

How the results depend on the processing

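The counts of 8 and 7 lower genes ranged, as all calls, from 7 to 9 with octanoic acid and from 7 to 8 with clean air over 15 alternatives each; leaving out 1 pool gave 8 to 8 and 7 to 7. The calls that changed were those named above for Dcx, Dpysl5 and Stmn2. Fitting GFP+ and GFP- arrays as independent groups, which ignores their pairing within a pool, gave 8 and 7. No gene of the 10 passed for octanoic acid against clean air under any of 15 alternatives for each of the 3 comparisons, and a replicate block on the pool number changed no call, with counts of 0 and lowest adjusted p of 0.781 for the differences, 0.826 in GFP+ and 0.916 in GFP- cells; the lowest over the alternatives were 0.566, 0.740 and 0.740. At most 1 of the 10 had an unadjusted p under 0.05 there. Among values that passed nowhere, 14 changed sign under at least 1 alternative, 31 times in all. No probe set of the 10 genes needed a choice between probe sets. Bounds for Nhlh1 and Gng8 are limited by the background.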

Other observations

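Between pools within a gate, some of the 10 genes varied alike and others did not. On the 8 GFP- arrays, octanoic acid pool 2 was the lowest for 7 of the 10 (Nhlh1, Nhlh2, Gap43, Gng8, Dpysl3, Stmn1 and Stmn2), with a mean over the 10 of 11.8 log2 against 12.1 to 12.6 on the other GFP- arrays. Clean air pool 3 was the highest for 5 of the 10. On the octanoic acid pool 2 array the leukocyte markers averaged 11.5 log2, the cell cycle genes 8.25 and the mature neuron genes 16.1, where the other GFP- arrays had 10.2 to 11.9, 7.34 to 9.61 and 15.9 to 16.2. Their part in the low values was not tested. Without that pool the GFP- estimates of Nhlh1, Gap43, Dpysl3 and Stmn2 for octanoic acid against clean air were 0.12, 0.0006, 0.16 and 0.02, against -0.15, -0.14, -0.11 and -0.14 with it, and none passed.

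On the 8 GFP+ arrays, octanoic acid pool 3 was the lowest for 4 of the 10 (Crmp1, Dpysl3, Dpysl5 and Stmn2). It was the highest for 4 others (Nhlh1, Nhlh2, Gap43 and Stmn1), of which Nhlh1 lay under the background there. This is the array with the high sustentacular signal, whose part in these values was not tested. Without that pool the count of lower genes with octanoic acid was 8.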
